A study of Mus musculus with 9 samples.

Results

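The genes described here mark the 2-cell-like state, a short-lived condition that a small fraction of mouse embryonic stem cells (mESC) enter and leave in culture. They are 10 named genes: Zscan4a, Zscan4b, Zscan4c, Zscan4d, Zscan4f, Gm5662, AF067061, Zfp352, Gm4340 and Gm7982. Every transcript cluster of the array whose annotation lists 1 of these symbols was taken, which gave 29 clusters of the 23410 that carry a gene, or 10 of 21335 gene symbols. A transcript cluster is a set of probes summarised into 1 log2 level per array. All 10 genes were found, but only Gm5662, AF067061, Gm7982 and Zfp352 had a cluster of their own, 20 clusters in all. The other 9 clusters are shared with near-identical genes. No cluster was removed for a low level. The genes had been picked from contrasts between these same lines, so their levels and differences are given as a description. Counts of those past a test's threshold stand beside the share of all clusters and are no evidence about the genes.

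The study profiled 9 C57BL/6 (C57BL/6J in the methods) mESC lines at passage 8 with Affymetrix Mouse Gene 1.0 ST arrays, 3 lines per group and 1 array per line. The mESCWM lines (WM1, WM2, WM3) came from blastocysts made by in vitro fertilization (IVF) and grown in Whitten's medium under 20% O2, the suboptimal culture. The mESCKAA lines (KAA1, KAA2, KAA3) came from IVF blastocysts grown in KSOM with amino acids under 5% O2, the optimal culture. The mESCFB lines (FB1, FB2, FB3) came from blastocysts flushed from the uterus after natural mating of hormone-treated females. All lines were derived and kept in the same way, first on CF-1 mouse embryonic fibroblast feeders with leukemia inhibitory factor and the 2i inhibitors and then on gelatin; the groups differ in how the embryos were conceived and cultured before derivation. Each line grew from a single blastocyst, and with 1 array per line the spread within a group is the spread between lines.

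The labels call all 9 lines female. The Y-linked gene Eif2s3y, a translation factor gene, stood at 3.72 to 5.19 on the log2 scale in FB1, KAA2 and WM3 and at 1.77 to 2.20 in the other 6 lines. Median levels of the arrays lay between 4.64 and 4.70. The mESC label was checked against 14 embryonic stem cell markers, whose mean log2 level was 8.39 to 8.77 in mESCWM, 8.39 to 8.50 in mESCKAA and 8.52 to 8.72 in mESCFB. Pou5f1, the gene of OCT4, lay between 10.07 and 10.43 in every line. Sox2 ran from 8.62 to 9.17, Zfp42 from 6.69 to 7.63 and Nanog from 8.52 in KAA1 to 10.35 in WM2. Groups are summarised with all 9 lines. The summary over all 29 clusters in each contrast is repeated without FB2, the highest line in these genes, and without the 3 lines with higher Eif2s3y and Uty.

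In the mouse embryo, the 2-cell stage is when the genome is first broadly transcribed, and Zscan4 is among the genes switched on in that wave. ZSCAN4 proteins carry a SCAN domain and zinc fingers, and in mESC they are known for bursts of expression that accompany telomere lengthening. In mESC the homeodomain factor DUX switches on Zscan4, Zfp352 and copies of the endogenous retrovirus MERVL, and chromatin repressors such as TRIM28, KDM1A and the CAF-1 complex hold the state in check. A rise of such genes in a bulk culture can come from more cells in the state or from more RNA per cell, and bulk arrays cannot tell these apart.

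Most of these genes share a cluster with related genes. All 3 Zscan4 clusters list the same 5 genes, Zscan4a, Zscan4b, Zscan4c, Zscan4d and Zscan4f, which lie together on chromosome 7. Zscan4a is annotated as a transcribed pseudogene, and the neighbours Zscan4e and 3 others as pseudogenes. The 2 Gm4340 clusters list 9 and 13 genes of chromosome 10, and 4 of the 5 clusters with Gm5662 also list Eif1a, the gene of translation initiation factor eIF1A, and 6 related genes. RefSeq promoter windows (GRCm38.p6, here the 250 bases before each start) were matched for 7 of the 10 genes and for 14 genes that share a cluster with them. The 4 Zscan4 windows were 94.7% to 99.6% identical over their aligned bases, and those of Zscan4c and Zscan4f differed at 1 of 227 aligned bases. The Gm4340 window was the same as that of Gm21312 and differed by 1 base from those of Gm21293, Gm8764, Gm21304 and Gm20765. The windows of Gm4301, Gm4302, Gm4303, Gm4305, Gm4307 and Gm4312, which also share these clusters, had the same base at 53.2% to 57.6% of the Gm4340 window's positions after alignment. This share is of all 250 bases and not of aligned bases alone, as it was for Zscan4. Gm4301 had 133 of 185 aligned bases the same and Gm4302 144 of 194. The windows below are shown because they hold the letters searched for and the alignments start from some of them. Capitals mark TGATTNAA, the first 8 letters of the motif that DUX is known to bind, and in Zfp352 they mark TAATCC, a core that bicoid-type homeodomain proteins such as OTX2 bind. Zscan4c lies at chr7:11005495-11005744 (+), Zscan4d at chr7:11166149-11166398 (-), AF067061 at chr13:120262845-120263094 (+), BB287469, which shares clusters with Gm5662, at chr12:87816327-87816576 (+), Gm4340 at chr10:104193792-104194041 (+) and Zfp352 at chr4:90218570-90218819 (+).
Zscan4c: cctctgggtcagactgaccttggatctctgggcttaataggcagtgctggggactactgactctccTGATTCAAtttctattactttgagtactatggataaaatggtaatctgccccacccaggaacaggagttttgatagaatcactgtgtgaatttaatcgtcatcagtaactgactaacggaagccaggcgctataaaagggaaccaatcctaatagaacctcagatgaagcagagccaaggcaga
Zscan4d: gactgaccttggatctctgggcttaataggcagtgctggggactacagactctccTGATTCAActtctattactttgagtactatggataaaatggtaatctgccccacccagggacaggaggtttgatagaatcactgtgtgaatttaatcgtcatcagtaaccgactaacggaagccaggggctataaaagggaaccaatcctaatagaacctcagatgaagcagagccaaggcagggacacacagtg
AF067061: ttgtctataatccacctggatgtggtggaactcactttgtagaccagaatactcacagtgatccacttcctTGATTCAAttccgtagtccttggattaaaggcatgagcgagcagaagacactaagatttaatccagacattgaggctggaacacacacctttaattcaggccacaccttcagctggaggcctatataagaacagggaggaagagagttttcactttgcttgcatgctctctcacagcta
BB287469: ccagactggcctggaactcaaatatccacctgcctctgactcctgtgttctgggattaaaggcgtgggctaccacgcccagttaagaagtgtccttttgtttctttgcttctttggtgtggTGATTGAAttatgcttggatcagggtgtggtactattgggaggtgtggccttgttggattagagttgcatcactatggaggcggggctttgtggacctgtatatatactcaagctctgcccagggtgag
Gm4340: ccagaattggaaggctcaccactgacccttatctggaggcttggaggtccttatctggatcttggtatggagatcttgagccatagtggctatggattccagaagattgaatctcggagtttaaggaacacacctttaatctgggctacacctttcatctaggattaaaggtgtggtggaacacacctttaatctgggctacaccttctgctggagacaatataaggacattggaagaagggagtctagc
Zfp352: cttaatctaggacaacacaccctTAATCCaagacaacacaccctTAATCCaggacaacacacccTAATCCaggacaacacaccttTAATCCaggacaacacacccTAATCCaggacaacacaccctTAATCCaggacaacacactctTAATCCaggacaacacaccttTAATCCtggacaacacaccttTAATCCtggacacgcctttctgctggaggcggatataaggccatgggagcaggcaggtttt

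The full DUX motif (TGATT, any base, then AATCA), searched on both strands, was in none of these 21 windows, and 10 of the 32851 windows of all genes hold it (0.0304%). Its first 8 letters TGATTNAA, a search chosen after the windows had been read, matched once each in Zscan4b, Zscan4c, Zscan4d, Zscan4f, AF067061, Gm4027, Gm21319 and BB287469, against 2.60% of all windows with a match. The letters TATAAA were in all 4 Zscan4 windows and in 12.4% of all windows. Zfp352 held TAATCC 9 times on both strands together, the most of any window, and no other window held it 5 or more times, while 6.25% of all windows held it at least once. AF067061 held it 3 times and Gm4340 once, while the 6 less alike windows of the Gm4340 clusters held it 0 times. These matches are letters in a sequence and not measured binding.

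The Zscan4 genes were high in the mESCWM lines, low in the mESCKAA lines and split among the mESCFB lines. The brightest of the 3 Zscan4 clusters had log2 levels of 5.66 in WM1, 7.15 in WM2 and 5.75 in WM3. It had 3.69 in KAA1, 4.30 in KAA2 and 4.24 in KAA3, and 3.44 in FB1, 7.86 in FB2 and 5.12 in FB3. Every mESCWM line thus lay above every mESCKAA line, whereas the mESCFB lines held both the highest and the lowest level of the 9. On the linear scale FB2 was 21.4-fold above FB1, another line of the same group. The group means were 6.19 ± 0.84 in mESCWM, 4.08 ± 0.34 in mESCKAA and 5.48 ± 2.23 in mESCFB (SD, n = 3 each). As differences of log2 means, mESCWM stood 2.11 above mESCKAA, mESCKAA 1.40 below mESCFB (-1.40) and mESCWM 0.71 above mESCFB, each with an SE of 0.95. This SE is limma's and uses a spread shared by all groups. The wide mESCFB spread thus enters the SE of mESCWM minus mESCKAA too. Without FB2, the mESCWM minus mESCFB difference was 1.91 and the mESCKAA minus mESCFB difference was -0.20. The other 2 Zscan4 clusters had the same order of lines at both ends, with FB2 highest at 7.61 and 7.36, WM2 second at 6.78 and 6.43 and FB1 lowest at 3.39 and 3.17. Their mESCWM minus mESCKAA differences were 1.96 and 1.97.

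**Figure D1:**
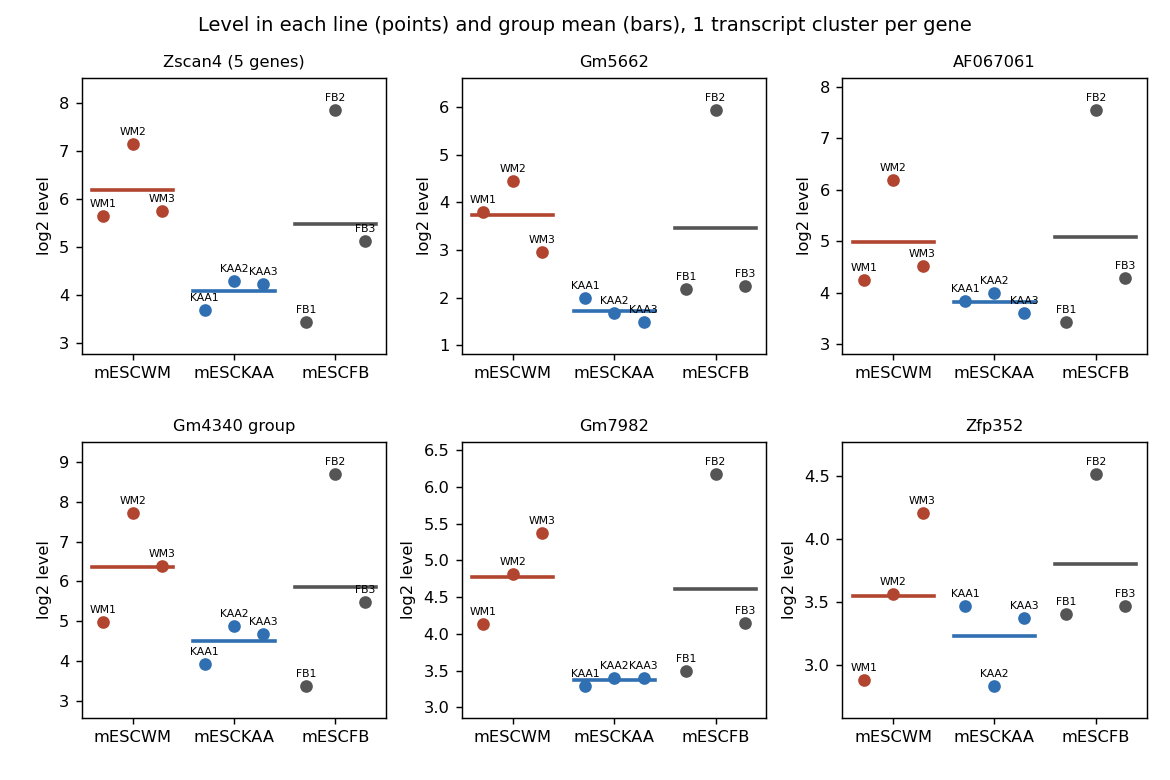
Log2 level (y axis, a different range in each panel) of 1 transcript cluster per gene in each line (labelled points), with the mean of each group as a bar, for mESCWM, mESCKAA and mESCFB from left to right. FB2 is the highest line in every panel, at 7.86 for Zscan4 and 8.71 for the Gm4340 group, and FB1 lies below all mESCKAA lines for Zscan4, AF067061 and the Gm4340 group.

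Gm5662 is a chromosome 12 gene of an eIF1A-like family that is transcribed at the 2-cell stage. Its own cluster had log2 levels of 3.79 in WM1, 4.45 in WM2 and 2.95 in WM3, against 1.98 in KAA1, 1.68 in KAA2 and 1.49 in KAA3. The mESCFB lines had 2.18 in FB1, 5.95 in FB2 and 2.24 in FB3. The 3 mESCKAA lines were the lowest of the 9, at levels that exceeded 0.777% to 6.86% of all clusters on the same array. The means were 3.73 ± 0.75 in mESCWM, 1.72 ± 0.25 in mESCKAA and 3.46 ± 2.16 in mESCFB (SD, n = 3 each), and mESCWM stood 2.02 above mESCKAA. The mESCKAA minus mESCFB difference was -1.74 with all lines and -0.50 without FB2, and both rest on mESCKAA levels near the low end of the arrays.

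The 4 clusters that Gm5662 shares with Eif1a moved the same way with smaller steps. The brightest had log2 levels of 7.53, 7.80 and 7.50 in WM1, WM2 and WM3, against 6.73, 6.64 and 7.01 in KAA1, KAA2 and KAA3 and 7.20, 8.79 and 7.32 in FB1, FB2 and FB3. Eif1a encodes a factor that every cell uses, and a level shared with it cannot be assigned to Gm5662. Across the 4 shared clusters, mESCWM stood 0.62 to 0.92 above mESCKAA, and the mESCKAA minus mESCFB differences ran from -0.98 to -0.67 with all lines and from -0.50 to -0.32 without FB2. The SD between the mESCWM lines was 0.04 to 0.35 in these clusters.

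AF067061 is a chromosome 13 transcript of the 2-cell embryo. It had log2 levels of 4.25 in WM1, 6.18 in WM2 and 4.52 in WM3, against 3.84 in KAA1, 3.99 in KAA2 and 3.59 in KAA3. It had 3.43 in FB1, 7.55 in FB2 and 4.28 in FB3. WM1 exceeded KAA2 by less than the spread among the mESCWM lines, and FB3 lay between WM1 and WM3. The means were 4.98 ± 1.05 in mESCWM, 3.81 ± 0.20 in mESCKAA and 5.09 ± 2.18 in mESCFB (SD, n = 3 each). The mESCWM minus mESCFB difference was -0.11 with all lines and 1.13 without FB2.

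The brighter Gm4340 cluster had the widest spread among the 29 clusters. It is shared by 9 genes and had log2 levels of 4.97 in WM1, 7.71 in WM2 and 6.39 in WM3, against 3.91 in KAA1, 4.89 in KAA2 and 4.68 in KAA3. It had 3.38 in FB1, 8.71 in FB2 and 5.48 in FB3, so that FB2 was 40.2-fold above FB1 on the linear scale. Only WM1 among the mESCWM lines came near the mESCKAA range. The SD over the 9 lines was larger than in 99.99% of all clusters. The second cluster, shared by 13 genes, had 4.28, 5.74 and 5.12 in WM1, WM2 and WM3, 3.73, 4.06 and 3.97 in KAA1, KAA2 and KAA3 and 3.64, 6.50 and 4.43 in FB1, FB2 and FB3. The mESCWM minus mESCKAA differences of the 2 clusters were 1.86 and 1.13. Without FB2, mESCWM stood 1.93 and 1.02 above mESCFB, and the mESCKAA minus mESCFB differences were 0.06 and -0.11.

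Gm7982, a predicted gene of chromosome 5, was listed by 17 clusters with 12 distinct profiles, because some clusters held the same values. The brightest had log2 levels of 4.13 in WM1, 4.82 in WM2 and 5.37 in WM3, against 3.29 in KAA1, 3.40 in KAA2 and 3.40 in KAA3. It had 3.49 in FB1, 6.18 in FB2 and 4.14 in FB3, and all mESCKAA lines lay below all mESCFB lines. Gm7982 differed from Zscan4 in the order of the mESCWM lines: WM3 exceeded WM2 in 16 of its 17 clusters, with WM2 minus WM3 between -0.72 and 0.11, whereas WM2 exceeded WM3 by 1.03 to 1.40 in the Zscan4 clusters. The lowest line was KAA2 in 11 of the 17 clusters, KAA1 in 5 and KAA3 in 1. The mESCWM minus mESCKAA differences ran from 1.06 to 1.89 and the mESCKAA minus mESCFB differences from -1.49 to -0.99. The difference of 1.89 came from the dimmest cluster, with KAA1 at 1.64, KAA3 at 1.87 and FB1 at 1.77, near the low end of the arrays. Without FB2 the mESCKAA minus mESCFB differences ran from -0.61 to -0.25, and mESCWM stood at least 0.76 above mESCFB in each of the 17 clusters.

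Zfp352, a zinc finger gene without introns that is transcribed in the 2-cell embryo, followed the others only in part. It had log2 levels of 2.88 in WM1, 3.56 in WM2 and 4.21 in WM3, against 3.47 in KAA1, 2.83 in KAA2 and 3.38 in KAA3. It had 3.41 in FB1, 4.52 in FB2 and 3.47 in FB3. FB2 was again the highest line, but WM1 lay among the lowest and the 3 groups overlapped with one another. The mESCWM minus mESCKAA difference was 0.32 with an SE of 0.39, the smallest among the 29 clusters. Without FB1, KAA2 and WM3 it was -0.20.

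FB2 was the highest line in 29 of the 29 clusters, while it was highest in 11.1% of all 23410 clusters. Among the 2256 clusters whose lines ranged over at least 1 log2 unit, it was highest in 20.5%. The second place was held by WM2 in 11 clusters and by WM3 in 18, and the lowest by KAA2 in 15, FB1 in 6, KAA1 in 5 and KAA3 in 3. Gm7982 alone supplied 17 of the 29 clusters, and KAA2 was lowest in 11 of its clusters. Over the 24 distinct profiles, WM2 was second in 11 and WM3 in 13. The median deviation of the 29 clusters from their own means was -0.03 in WM1, 0.67 in WM2 and 0.83 in WM3 (over the distinct profiles, 0.76 in WM2 and 0.74 in WM3). It was -0.74 in KAA1, -0.77 in KAA2 and -0.77 in KAA3, and -0.73 in FB1, 1.85 in FB2 and -0.10 in FB3. The mESCKAA lines and FB1 therefore formed a low set of 4 lines, FB3 and WM1 stood in the middle and WM2, WM3 and FB2 were high. WM2 and WM3 could not be ordered, since which was higher changed with the gene.

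**Figure D2:**
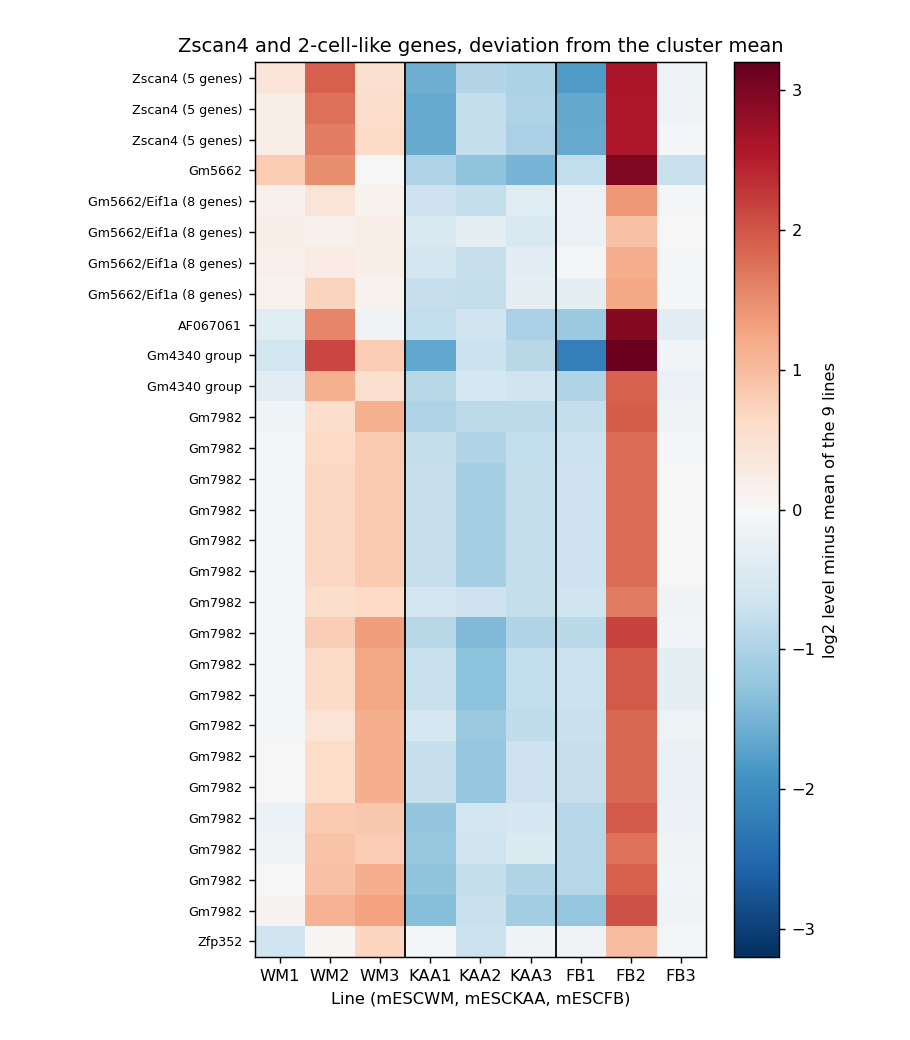
Deviation of the log2 level from the mean of the 9 lines (colour scale, red above and blue below the mean) for each of the 29 transcript clusters (rows) in each line (columns, mESCWM, mESCKAA and mESCFB from left to right). The FB2 column is red in all 29 clusters, and WM3 is deeper red than WM2 in 16 of the 17 Gm7982 clusters.

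The spread between lines was of a different size in each group. The SD over the 3 lines had a median of 0.60 across the 29 clusters in mESCWM, 0.27 in mESCKAA and 1.35 in mESCFB. Across all clusters the medians were 0.13, 0.13 and 0.12 for the same groups. The size in mESCFB rested on FB2: FB1 and FB3 alone had a median SD of 0.46, below that of mESCWM. The mESCKAA lines had the lowest median of the 3 groups with all lines, without FB2 and without FB1, KAA2 and WM3.

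In the comparison of the suboptimal with the optimal IVF culture, mESCWM stood above mESCKAA in 29 of 29 clusters, with a median log2 difference of 1.34 and a range of 0.32 to 2.11. The mESCWM lines lay wholly above the mESCKAA lines in 28 clusters, all but Zfp352, while this was so in 4.03% of all clusters. Gm7982 alone gave 17 of the 28. Limma, with p-values adjusted over all clusters, called none of the 29 and 0% of all clusters. At an unadjusted p under 0.05, 17 of the 29 passed, with 6.29% of all clusters. That count was 0 without KAA1, without WM2 and without WM3, beside 1606, 1566 and 1835 of all 23410 clusters. It was also 0 without FB1, KAA2 and WM3 together (1759 of all clusters). It was 2 without KAA2 or without KAA3 (1289 and 1283 of all clusters) and 28 without FB2 (1426 of all clusters). The rank product, the test that the study's methods name, passed 26 of the 29 as higher at a percentage of false positives under 0.05, with 0.295% of all clusters passing upward. Of the 26, 17 were clusters of Gm7982. The 3 that the rank product did not pass were Zfp352 and 2 of the clusters shared with Eif1a. Leaving out FB1, KAA2 and WM3 gave a median of 1.07, with 28 of 29 clusters above 0.

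Set against lines from flushed blastocysts, mESCKAA stood below mESCFB in 29 of 29 clusters, with a median of -1.22 and a range of -1.74 to -0.57. The mESCKAA lines lay wholly below the mESCFB lines in 13 clusters, 9 of Gm7982, 3 shared with Eif1a and Gm5662 itself, while this was so in 3.7% of all clusters. Limma called 0 of the 29 (0% of all clusters), and 4 had an unadjusted p under 0.05, with 4.81% of all clusters. The rank product passed 3 as lower, with 0.0812% of all clusters passing downward. At an unadjusted p under 0.05, 27 passed without FB1, beside 1337 of all 23410 clusters. This contrast rested on FB2: without it the median difference was -0.41, with 28 of 29 clusters still below 0. Without FB1, KAA2 and WM3 the median was -1.63.

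Between the mESCWM and the mESCFB lines no direction held. The median difference was 0.20, with 24 of 29 clusters above 0 and a range of -0.25 to 0.71, and no cluster had groups without overlap, against 3.58% higher and 4.55% lower among all clusters. Limma called 0 of the 29 (0% of all clusters), 0 had an unadjusted p under 0.05, with 5.89% of all clusters, and the rank product passed 0, with 0.0171% of all clusters passing upward and 0.0812% downward. Without FB2 the median was 1.04 and 29 of 29 clusters lay above 0. Without FB1 it was -0.38 and 0 of 29 lay above 0, and without FB1, KAA2 and WM3 it was -0.53 with 1 above 0. At an unadjusted p under 0.05, 24 passed without FB2, beside 1121 of all 23410 clusters. The 3 contrasts share lines and the genes had been chosen on contrasts of them, so these counts are no evidence about the genes and do not add to one another.

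**Figure D3:**
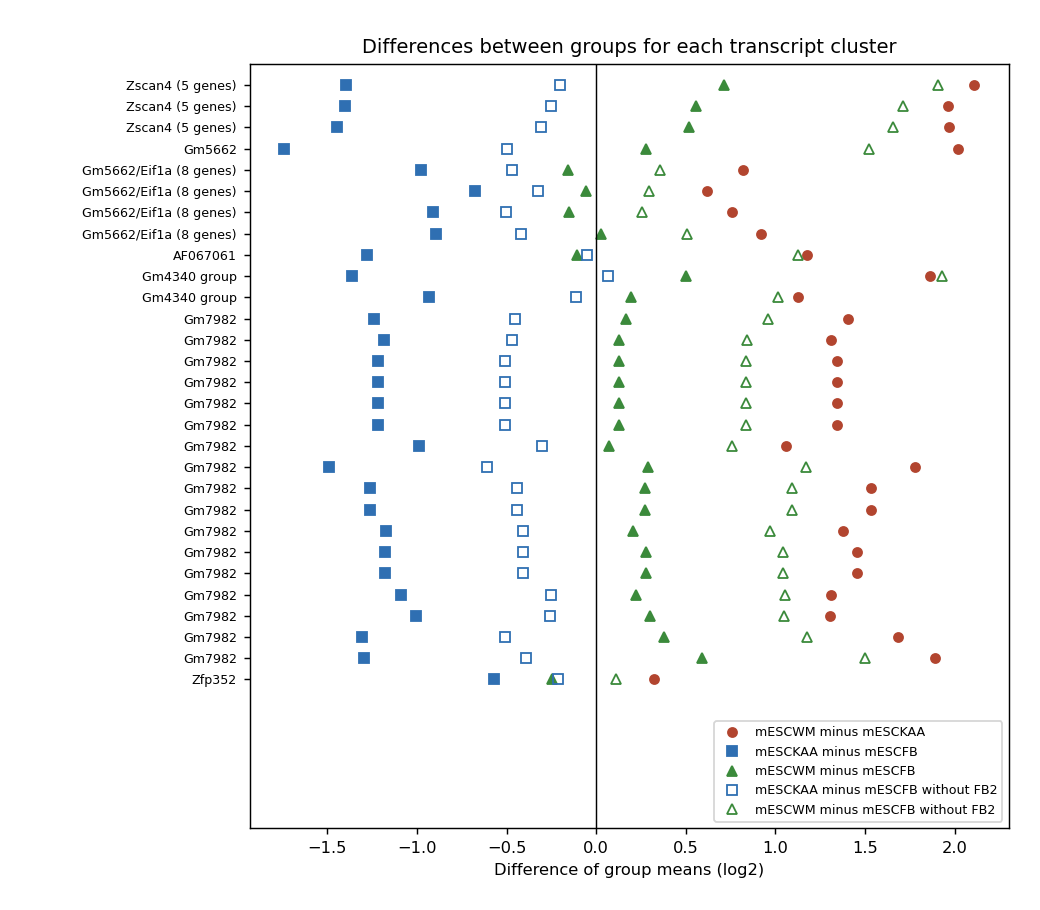
Difference of group means on the log2 scale (x axis) for each of the 29 transcript clusters (y axis), for mESCWM minus mESCKAA (circles), mESCKAA minus mESCFB (squares) and mESCWM minus mESCFB (triangles), with open symbols for values without FB2. Circles lie between 0.32 and 2.11, and leaving out FB2 moves the squares toward 0 and the triangles to the right.

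The levels of these genes ran together across the lines. Among the 24 distinct profiles, the Pearson r of 276 pairs over the 9 lines had a median of 0.926 and ran from 0.580 to 0.999. Clusters that share genes share probes or sequence, FB2 weighs on all pairs, and the genes had been picked for a like pattern, so these are descriptions. Without FB1, KAA2 and WM3 the median was 0.967 over 6 lines. Without FB2 it was 0.857, and without FB2 and WM2 it was 0.838 over 7 lines. The mean profile of the 3 Zscan4 clusters correlated with AF067061 at r = 0.940, with Gm5662 at 0.919, with the 2 Gm4340 clusters at 0.976 and 0.975 and with Zfp352 at 0.599. Without FB2 and WM2, AF067061 kept an r of 0.910, Gm5662 had 0.697 and Zfp352 had 0.237.

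A wider list of genes of the 2-cell-like state was read in the same lines. Of 68 listed genes, 41 had a cluster that was not yet counted and held none of the 10 symbols, and their mean level was under 4 on the log2 scale in 32, so that most were dim. Limma called 0 of the 41 in each of the 3 contrasts, with 0% of all clusters called. At an unadjusted p under 0.05 there was 1 in mESCWM minus mESCKAA, 2 in mESCKAA minus mESCFB and 0 in mESCWM minus mESCFB, beside 6.29%, 4.81% and 5.89% of all clusters. The rank product passed 2 as higher in mESCWM than in mESCKAA (0.295% of all clusters) and 1 as lower in mESCKAA than in mESCFB (0.0812%). The median differences were 0.06, -0.16 and -0.04 in the same order of contrasts, against -0.01, 0.01 and 0.00 over all clusters.

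In the wider list, too, FB2 was often the highest line. It was highest in 19 of the 41 genes (46.3%), and its median deviation was 0.38. FB2 first and WM2 second was the order in 13 of the 41 genes (31.7%) and in 11 of the 29 clusters above, against 1.81% of all clusters. The list was drawn up with results of these lines known, so these shares are descriptions.

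By the smallest p in the contrasts, the list gave Eif4a3l1 (listed under its older name Gm8994), Usp17la, Usp17ld, Usp17le, Gm5039, Zfp750, Sp110, Fgf1 and Ddit4l. Eif4a3l1, a gene related to the RNA helicase gene Eif4a3, had log2 levels of 3.96, 3.63 and 3.60 in WM1, WM2 and WM3 and 3.01, 2.99 and 3.25 in KAA1, KAA2 and KAA3. It had 3.09 in FB1, 3.71 in FB2 and 3.76 in FB3, and limma gave an adjusted p of 0.765 for mESCWM minus mESCKAA. Gm5039, an eIF1A-like pseudogene next to Gm5662, had 2.87, 3.25 and 3.22 in the mESCWM lines, 2.61, 2.73 and 1.98 in the mESCKAA lines and 2.95, 5.64 and 3.04 in the mESCFB lines. It lay above the mESCKAA lines in every mESCFB line, with FB2 alone above 4. Usp17le, of a deubiquitinase family and measured in a cluster shared with 3 relatives, had 4.78, 5.03 and 4.73 in the mESCWM lines, 4.21, 4.21 and 4.77 in the mESCKAA lines and 4.28, 5.48 and 4.77 in the mESCFB lines.

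Other genes of the list were named after their values had been seen. The cluster of Gm4027 and BB287469, relatives of Gm5662, had log2 levels of 2.55 in WM1, 4.92 in WM2 and 4.21 in WM3, 2.34, 2.25 and 2.50 in the mESCKAA lines, and 1.85 in FB1, 6.55 in FB2 and 2.32 in FB3. Its mESCWM minus mESCKAA difference was 1.53 and its mESCKAA minus mESCFB difference -1.21. Tcstv3, a 2-cell-stage gene of the chromosome 13 region that also holds AF067061, had 2.11, 3.70 and 2.69 in the mESCWM lines, 2.37, 2.08 and 2.37 in the mESCKAA lines and 2.18, 5.01 and 2.54 in the mESCFB lines. In both, FB2 was highest and WM2 second, and the mESCKAA lines were at 2.50 or below. A cluster of 6 Pramel-type genes, found through the older symbol Gm13119, had 6.73 in WM2 and 6.61 in FB2, and between 2.66 and 3.89 in the other 7 lines. Usp26 had 5.79 in WM2, 3.99 in FB2 and 2.44 to 3.17 elsewhere.

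**Figure D4:**
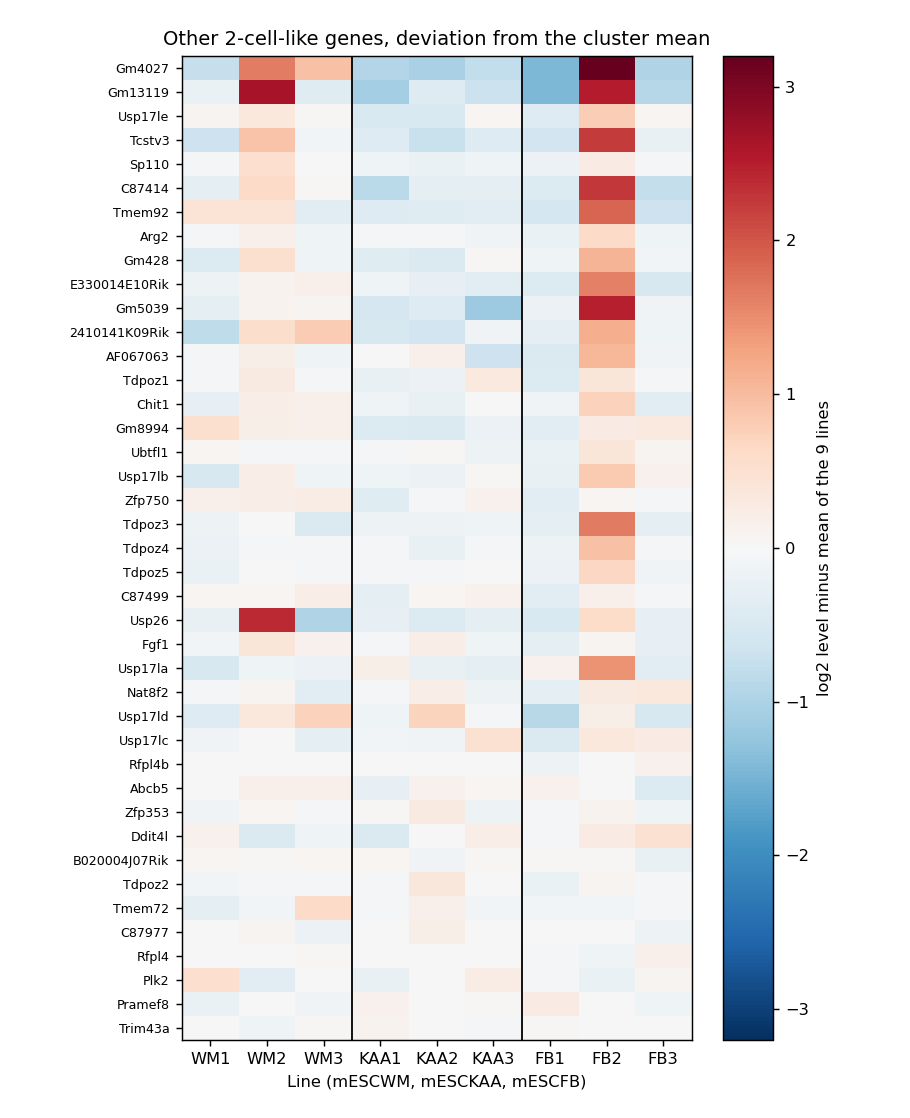
Deviation of the log2 level from the mean of the 9 lines (colour scale) for 41 other genes of the 2-cell-like state (rows, ordered by their correlation with the Zscan4 clusters and labelled by the listed symbol) in each line (columns, mESCWM, mESCKAA and mESCFB from left to right). Colour is strongest in FB2, the highest line in 19 of the 41 genes, and in WM2 for Usp26 and the Gm13119 cluster.

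Of 11 listed activators of the state, 10 were measured, and of 36 listed repressors 35 were. Limma called 0 of these 45 in each contrast, and 1, 1 and 3 had an unadjusted p under 0.05 in mESCWM minus mESCKAA, mESCKAA minus mESCFB and mESCWM minus mESCFB, beside 6.29%, 4.81% and 5.89% of all clusters. Duxf3, the DUX gene itself, was measured in a cluster shared with Gm9919 and had 4.30, 4.63 and 4.25 in the mESCWM lines, 4.20, 4.28 and 4.30 in the mESCKAA lines and 4.23, 4.25 and 4.20 in the mESCFB lines. FB2 did not stand out in it. Dppa2, which with Dppa4 activates Dux, had 8.54, 9.13 and 9.64 in the mESCWM lines, 9.43, 8.86 and 9.23 in the mESCKAA lines and 9.42, 9.90 and 9.43 in the mESCFB lines. Its group ranges overlapped, and the mESCKAA minus mESCFB difference was -0.41 with an adjusted p of 0.918 by limma. Tbx3, a transcription factor gene linked to Zscan4 expression in mESC, was highest in FB2 at 7.57 and second in WM2 at 7.20.

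The repressors differed in how far they ranged across the 9 lines, with 1.21 log2 units in Tet1, a DNA demethylase gene, and 1.16 in Morc3 (named after their values had been seen). Kdm1a, a histone demethylase gene, had 9.26, 9.21 and 8.98 in the mESCWM lines and 8.91, 8.70 and 8.92 in the mESCKAA lines, 0.30 apart with an SE of 0.11 (adjusted p of 0.771 by limma). The mESCFB lines had 9.05, 8.77 and 8.90. L3mbtl2, of the PRC1.6 complex, had 6.95 to 7.28 in mESCKAA and 7.35 to 7.42 in mESCFB, a difference of -0.28 with an adjusted p of 0.918. Hdac3, a histone deacetylase gene, had 7.21 to 7.46 in mESCWM and 7.56 to 7.66 in mESCFB, a difference of -0.27 (adjusted p of 0.819). In mESCKAA minus mESCFB, 30 of the 35 repressors lay below 0, with a median of -0.13, and KAA2 was the lowest line in 13 of them while FB1 was the highest in 15. FB1 lay above a gene's own mean over the 9 lines in 34 of the 35. Among all 23410 clusters, 11127 lay below 0 in this contrast. KAA2 was the lowest line in 2874 of all clusters, and FB1 was the highest in 10.7% and above the cluster's mean in 11104. The mean level of the repressors correlated with the Zscan4 profile at r = -0.132 over 9 lines, and that of the activators at 0.521.

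Markers of other cells were set beside these genes. The 12 primitive endoderm markers had mean log2 levels of 5.30 to 5.55 in mESCWM, 5.54 to 6.61 in mESCKAA and 5.30 to 6.31 in mESCFB, with KAA1 highest at 6.61 and FB1 second at 6.31. Gata6, a defining primitive endoderm factor, stood at 7.01 in KAA1 and 6.34 in FB1 and at 4.81 to 5.73 in the other lines. KAA1 and FB1 were thus the lines with the highest endoderm markers and also the lines with the lowest Zscan4 levels, with r = -0.641 between the 2 means over 9 lines. KAA2 and KAA3, the next lowest lines in Zscan4, had endoderm means of 5.55 and 5.54. These were close to the 5.55 of WM2 and the 5.52 of WM3, which were high in Zscan4. FB2, the highest Zscan4 line, had a mean endoderm marker level of 5.36, and WM1 and FB3 were lower at 5.30 each. Feeder fibroblast markers, 19 of 20 measured, had means of 5.43 to 5.55 in mESCWM, 5.24 to 5.48 in mESCKAA and 5.19 to 5.28 in mESCFB. Of the 19, 13 lay above 0 in mESCWM minus mESCKAA with a median of 0.07, and 17 in mESCWM minus mESCFB with a median of 0.12. Acta2, a smooth muscle actin gene of fibroblasts too, had 8.87, 9.82 and 9.34 in the mESCWM lines, 8.56, 8.88 and 8.67 in the mESCKAA lines and 7.87, 8.31 and 8.56 in the mESCFB lines. Its mESCWM minus mESCKAA difference was 0.64 and that of Vim, the vimentin gene, was 0.51 (adjusted p of 0.771 each by limma). Postn and Lum, which fibroblasts express, were between 1.68 and 2.43 in every line. Trophectoderm markers had means of 5.51 to 5.92 in mESCWM, 5.84 to 6.12 in mESCKAA and 5.72 to 5.96 in mESCFB. Over the 9 lines, the mean of the embryonic stem cell markers correlated with the mean Zscan4 profile at r = 0.602. The feeder fibroblast mean had an r of 0.291 and the trophectoderm mean -0.271. The part of these cell types in the Zscan4 levels was not tested.

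The rest of the array was searched for genes that run with Zscan4. Of 2284 clusters with a single gene, none of the 10 symbols and an SD of at least 0.3 over the 9 lines, 11 had a Pearson r of at least 0.9 with the mean Zscan4 profile and 6 an r of -0.9 or less. The 10 most alike were Rpl39l (r = 0.956), Arl14epl (0.955), Mcf2 (0.934), Tst (0.926), Pdcl2 (0.921), Fbxo15 (0.920), Psmg4 (0.917), BC147527 (0.913), Tcl1 (0.912) and Pecam1 (0.911). Rpl39l, a ribosomal protein gene that is a testis-enriched copy of Rpl39, had 6.35, 6.64 and 7.06 in the mESCWM lines, 4.06, 5.25 and 4.82 in the mESCKAA lines and 4.19, 8.40 and 5.72 in the mESCFB lines. It thus shared with Zscan4 a low FB1, a high FB2 and mESCWM lines that all lay above the mESCKAA lines. Without FB2 and WM2 its r was 0.986 over 7 lines, the highest of the 10, while that of Tcl1 was 0.630.

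Among the 10 were genes with known ties to mESC. Arl14epl had 7.92, 8.88 and 8.19 in the mESCWM lines, 7.34, 7.54 and 7.50 in the mESCKAA lines and 7.36, 9.55 and 8.49 in the mESCFB lines. Fbxo15, an F-box gene long used as a reporter of pluripotent cells, had 8.62, 9.08 and 8.63 in the mESCWM lines, 8.18, 7.98 and 7.90 in the mESCKAA lines and 8.27, 9.25 and 8.39 in the mESCFB lines. Tcl1, a cofactor of AKT that mESC express, had 5.07, 6.46 and 5.12 in the mESCWM lines, 4.74, 5.25 and 4.42 in the mESCKAA lines and 4.71, 6.76 and 5.33 in the mESCFB lines. Their steps between lines were smaller than those of Zscan4, with slopes of 0.50, 0.29 and 0.49 log2 units for each unit of the Zscan4 profile, while Rpl39l had 0.92. BC147527 had 5.61 in FB2, 4.89 in WM2 and at most 4.03 elsewhere.

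**Figure D5:**
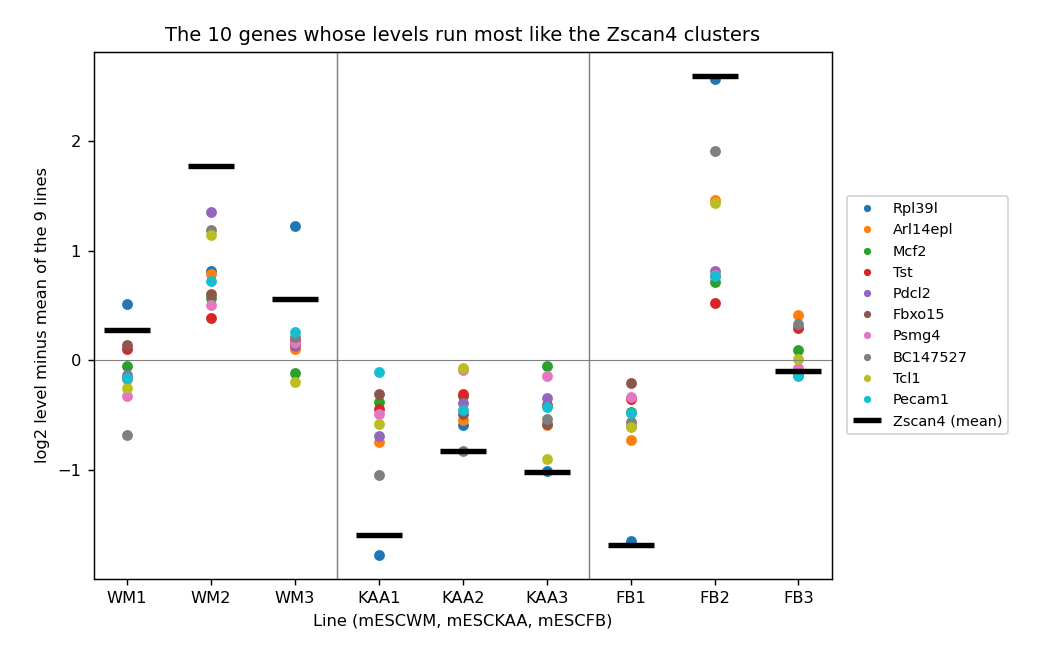
Deviation of the log2 level from the mean of the 9 lines (y axis) for the 10 genes most like Zscan4 (coloured points) and for the mean of the 3 Zscan4 clusters (black bars) in each line (x axis, mESCWM, mESCKAA and mESCFB from left to right). The Zscan4 bar stands at 2.59 in FB2 and -1.68 in FB1, and Rpl39l, with a slope of 0.92, comes nearest to it in these 2 lines.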

How the data were processed

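The authors ran 1 Affymetrix array (Mouse Gene 1.0 ST) for each of 9 lines and deposited log2 levels, made with Affymetrix Expression Console and R 3.1.0. Their methods name RMA, which corrects background, normalizes between arrays and gives 1 value per transcript cluster. Of 35556 clusters, 12146 without a gene were not tested. The 10 genes and the lists of activators, repressors, other 2-cell-like genes and markers were chosen with earlier results of these data known. Named beyond the 10 genes were up to 4 of each list with the smallest p per contrast, the 10 clusters most like Zscan4, and markers.

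Groups were compared with limma 3.58.1 in R 4.3.3 (lmFit with 1 mean per group, eBayes, two-sided, Benjamini-Hochberg over 23410 clusters, adjusted p under 0.05). The rank product was written in Python 3.11.15 with numpy 2.4.6, from 9 pairwise differences and 100 permutations within arrays, at a percentage of false positives under 0.05; the methods state no threshold. On simulated data for mESCWM minus mESCKAA over 23410 clusters, 100 clusters were shifted by 1 log2 unit and 100 by 2. Limma found 84% and 99% of these shifts, with 13 false calls. The rank product found 96% and 100%, with 54 false calls beside 96 and 100 true ones. The shifts were put on clusters picked at random, each with its own spread. In mESCWM the 29 clusters had a median SD of 0.60, against 0.13 over all clusters. These rates therefore do not hold for the 29 clusters. The number of arrays limits the precision. Every SE given is limma's, from a spread of the cluster that is shared by all groups. Promoters came from RefSeq (GRCm38.p6). Alternatives were 2 scalings, filters, other limma settings, 1 cluster per set of symbols, a replicate block, leaving out each line, and, chosen after seeing the data, leaving out FB1, KAA2 and WM3 together.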

Additional observations from a re-analysis of the deposited data

How the results depend on the processing

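Rank product in place of limma, which called 0 clusters, passed 26 of the 29 clusters in mESCWM minus mESCKAA and 3 in mESCKAA minus mESCFB, and 2 and 1 of the other 2-cell-like genes. Of all clusters, 0.295% passed upward in mESCWM minus mESCKAA and 0.0812% downward in mESCKAA minus mESCFB. Leaving out 1 line at a time moved the median difference of the 29 clusters between 1.18 and 1.65 in mESCWM minus mESCKAA, between -1.73 and -0.41 in mESCKAA minus mESCFB and between -0.38 and 1.04 in mESCWM minus mESCFB. The lowest size of the second and the highest value of the third came without FB2, and -0.38 came without FB1. In mESCWM minus mESCFB the sign of the median also changed without FB3 (-0.04) and without WM3 (-0.03), and the median was 0.04 without WM2. Quantile normalization gave 1.39, -1.27 and 0.20 and median centring 1.38, -1.25 and 0.20 for the 3 contrasts. The limma counts stayed at 0 in the listed genes under the alternatives run.

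The methods describe the 9 samples as independent, and the line numbers were not taken to pair the groups. For each cluster, the mean of a line's group was subtracted from its level, and these deviations were correlated between lines over 23410 clusters. By these deviations, same-numbered lines correlated at r between -0.01 and 0.33, and 5 of 9 pairs exceeded 0.1. Among the lines of the other groups, 8 of 9 lines correlated best with one of their own number. The highest r was that of KAA1 with FB1 (0.33), followed by WM2 with FB2 (0.23). What lines of the same number share was not tested. A replicate block left limma at 0 calls in each contrast. With it, 26, 17 and 0 of the 29 clusters had an unadjusted p under 0.05, beside 1876, 1443 and 1714 of all 23410. Levels under about 2, as of Gm5662 in the mESCKAA lines and of the dimmest Gm7982 clusters in KAA1, lie near the lower end of the arrays' range.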
